A study of Mus musculus with 3 samples.

Results

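Long intergenic noncoding RNAs (lincRNAs) are transcripts from between protein-coding genes that are annotated without a protein product. The genes described here were chosen by 2 properties of the deposited tables: all of their annotated transcripts carry the biotype lincRNA, and their level was at least 1 TPM in all 3 samples, where TPM is a level per transcript length scaled so that every library has the same total. Of 5844 genes with only lincRNA transcripts, 124 met this floor, among 10502 genes of any biotype that did. The choice rests on TPM, so the levels below are a description and are not tested. Polyadenylated RNA was sequenced from mouse C57BL/6J macrophages grown from bone marrow. All 3 samples form a single group, replicates 1, 2 and 3. They were exposed for 12 hours to lipid A, the lipid anchor of bacterial lipopolysaccharide, kept for 12 hours after it was washed out, and exposed again for 180 minutes, at 100 ng/ml each time. Some label fields instead name lipoprotein A, of type protein, and which is right cannot be settled from the labels. Sex and age are labelled as not collected. Samples of other treatments were not analysed here, so no level can be called induced or repressed. The samples are numbered as biological replicates under 1 donor record, and nothing says whether they came from separate animals or cultures, so their spread may be technical.

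LincRNAs work in varied ways: some stay in the nucleus and organise chromatin or nuclear bodies, some bind proteins or microRNAs in the cytoplasm, and some are the precursors of small RNAs. In macrophages, Toll-like receptor 4, the receptor for lipid A, is known to alter the transcription of many of them alongside cytokine genes. Several annotated lincRNAs have later been found to encode short peptides, so the biotype is a label of the annotation and not proof that no protein is made.

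The libraries held 23373296, 36818023 and 37681634 expected counts on mouse genes in replicates 1, 2 and 3. A count of 0 allows up to 3 counts, which is 0.128, 0.0815 and 0.0796 CPM, the counts scaled to a common library total, and this covers counting error only. All 10 macrophage markers listed, among them Csf1r and Adgre1, passed 1 TPM in each sample, with a summed level of 18760 to 21330 TPM. Summed neutrophil markers were at 98.5 TPM in replicate 2 against 12.0 and 10.8 TPM in replicates 1 and 3. Of the 7 listed, 2 were at 1 TPM or more in every sample, and Ly6g and Retnlg were at 0 counts in all 3. The lists for T and natural killer cells, B cells and erythroid cells each summed to at most 0.3 TPM. Dendritic cell markers summed to 3.77 to 5.22 TPM and stromal and endothelial markers to 3.24 to 5.04 TPM, with 1 of 5 at 1 TPM or more in every sample in each list, and mast cell and basophil markers summed to 0.81 to 0.98 TPM. In RNA from a whole culture, fewer cells of a type and less RNA per cell cannot be told apart. The part of these other cells in any lincRNA level was not tested.

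The last 30 bases of the leading transcript are shown for 9 members because the libraries were made from polyadenylated RNA, and the end of the transcript carries the signal for adding that tail. The sequences run 5′ to 3′ as the transcript reads, from GENCODE M21 on GRCm38, with the poly(A) signal AATAAA or its variant ATTAAA in capitals.
AW112010: ttcagtcacatAATAAAtttcgattgtgca
Malat1: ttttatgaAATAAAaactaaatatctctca
Neat1: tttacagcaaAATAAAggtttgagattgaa
Xist: taAATAAAatgctttgttttgaaaacatca
Mir155hg: ggtAATAAAatcccacagtgatgtcttaaa
Snhg6: ctcgtagtaaAATAAActcgtctttcatga
Gm14005: tttcttcATTAAAagcaaaaggaaagaaaa
Gm42418: ggtcgccctgccgcccccagggtcgggggg
Gm26778: gccccagcggctcttatcggggagccctgc
The first 7 hold a signal 13 to 22 bases before the end, and the other 2 hold none in their last 50 bases. They lie at chr19:11047617-11047646 (AW112010), chr19:5795690-5795719 (Malat1), chr19:5842307-5842336 (Neat1) and chrX:103460366-103460395 (Xist), all on the minus strand. Mir155hg ends at chr16:84715216-84715245 and Gm26778 at chr14:102982499-102982528, both on the plus strand. Among the 124 members, 76 (61.3%) had 1 of these hexamers in the last 50 bases of the leading transcript, against 40.4% of the other 5720 lincRNA genes and 77.6% of 9738 expressed genes with a protein-coding transcript. The leading transcript is the one of highest mean TPM, or the longest where these are equal. Genes without expression are thus represented by their longest transcript, so the classes are not fully alike in this choice. A match of letters is a description of the annotated end and does not show that the site is used.

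Expressed lincRNA genes were low as a group, with a few at very high levels. Their median TPM, taken over 3-replicate means, was 4.58, against 16.8 for all expressed genes. Of the 124, 34 (27.4%) reached a mean of 10 TPM and 5 (4.03%) reached 100 TPM, against 63.8% and 12.7% of expressed genes. AW112010, Gm10076, Malat1 and Neat1 together held 75.2% ± 0.68 (SD, n = 3) of all TPM of the 124, and AW112010 alone 39.3% ± 5.9. The 124 together made up 0.55% ± 0.027 of the TPM of the libraries. Gm10076, whose transcript is nearly identical to part of Rpl41 as described below, held 23.1% ± 7.2 of the TPM of the 124. Its mean was 1260 TPM in the gene tables and 0.665 TPM in those made from FASTQ files. These shares therefore depend on the tables used.

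**Figure D1:**
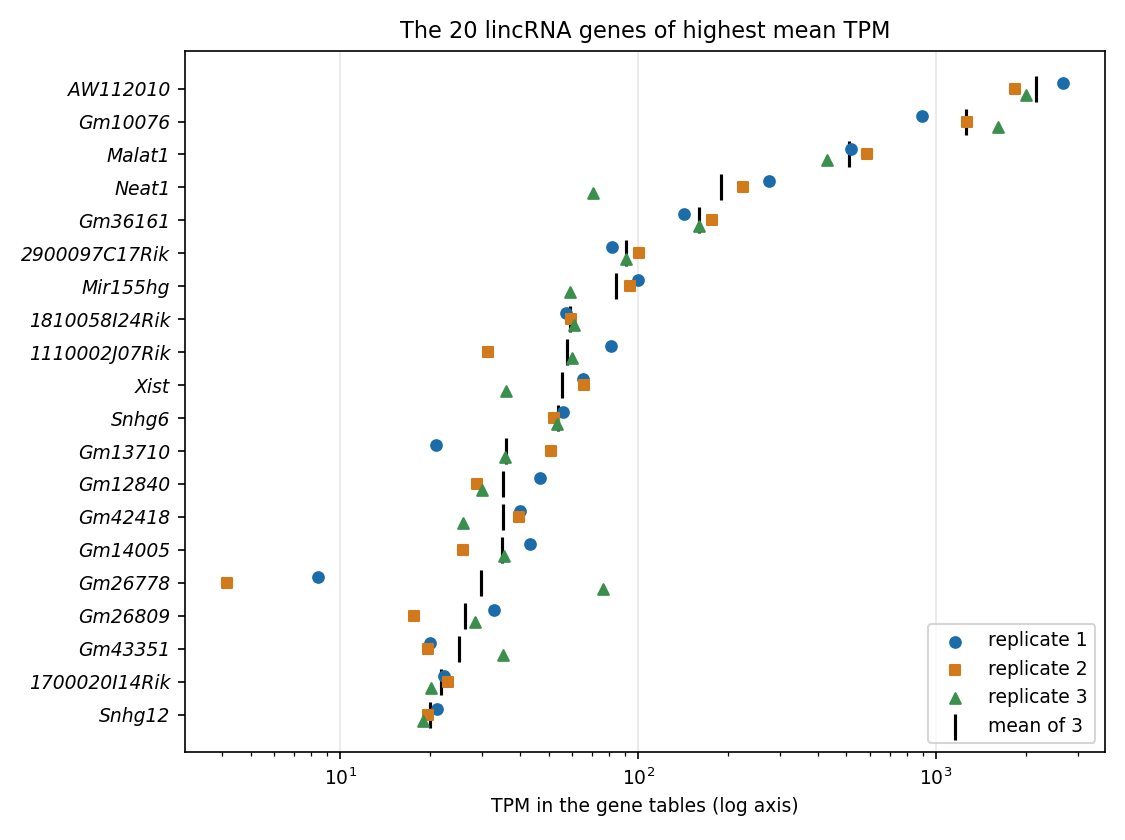
TPM in the gene tables for the 20 lincRNA genes with the highest mean, 1 row per gene on a log axis. Blue circles, orange squares and green triangles are replicates 1, 2 and 3 and the black bar is their mean; Gm26778 and Neat1 are the most spread out, and 1810058I24Rik and Snhg6 the least.

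Of 16 genes listed as long RNAs of inflammation or myeloid cells, 5 were members, 5 more were expressed but have transcripts of another biotype, and 6 were under the floor. AW112010 was the most abundant lincRNA gene, at 2665, 1844 and 2001 TPM in replicates 1, 2 and 3, a mean of 2170 ± 436 TPM (SD, n = 3) from 21253, 23000 and 25146 counts. It lies at chr19:11047612-11055808 on the minus strand, and its RNA is known to be translated in macrophages despite its noncoding label. Replicate 1 was highest, and its 2 other replicates stood close to each other. Its 770-base transcript AW112010-201 took 94.1% ± 1.26 of the gene's TPM and the 625-base AW112010-202 took 5.89% ± 1.26. The nearest protein-coding gene, Ms4a8a, 11663 bases away on the same strand, was at 0.52, 0.10 and 0.48 TPM.

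Gm14005, which the RefSeq table lists as Morrbid, is known for limiting the pro-apoptotic gene Bcl2l11 in short-lived myeloid cells. It was at 43.4, 25.9 and 35.4 TPM, a mean of 34.9 ± 8.76 TPM, and Bcl2l11, 15772 bases away on the opposite strand, was at 21.8, 18.02 and 28.3 TPM. The highest replicate of Gm14005 was replicate 1 and that of Bcl2l11 replicate 3. Of its transcripts, Gm14005-204 took 89.5% ± 1.12 of the TPM. Bvht, named Braveheart for its part in heart cell fate, was low at 3.68, 4.47 and 2.90 TPM from 17, 32 and 21 counts. AI427809 was at 2.97, 1.58 and 2.95 TPM. Both lie near the floor, where few counts stand behind each value. Ptgs2os2, a lincRNA gene next to the prostaglandin synthase gene Ptgs2, missed the floor in replicate 2 alone, with 2.58, 0.76 and 1.82 TPM from 61, 29 and 70 counts.

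Gm26917, also a member of this list, was at 24.2, 17.5 and 12.9 TPM, and Gm42418, 616 bases downstream of it on chromosome 17, was at 40.1, 39.7 and 25.9 TPM. Both were lowest in replicate 3. Of the 31-base sequences of Gm42418, 96.3% occur on the opposite strand in CT010467.1, a gene annotated as ribosomal RNA that was itself at 25590, 21494 and 12545 TPM. Ribosomal RNA carries no poly(A) tail in its mature form and is removed by poly(A) selection to a varying extent. CT010467.1 was likewise lowest in replicate 3, and its part in the level of Gm42418 was not tested. Gm26917 shares none of its 31-base sequences with other annotated genes. That measure compares annotated transcripts only, so it cannot show whether reads of Gm26917 came from ribosomal RNA. The part of ribosomal RNA in the level of Gm26917 was not tested.

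Of 22 genes found by symbol from a list of nuclear or chromatin RNAs, 5 were members: Malat1, Neat1, Xist, 2900097C17Rik and Jpx. Another 5 were expressed with a mixed biotype, and 12 were under the floor. The list includes 2900097C17Rik, a cytoplasmic RNA, and the count leaves out 1700020I14Rik, a member that the list held under other names. Malat1, an RNA of nuclear speckles that is abundant in most tissues, was at 517, 584 and 431 TPM, a mean of 510.5 ± 76.9 TPM. Neat1, the scaffold of nuclear paraspeckles, lies 22035 bases from Malat1 on chromosome 19 and was at 274, 224 and 70.5 TPM from 13998, 18126 and 5708 counts. Replicate 3 stood far below the other 2 for Neat1, while its value for Malat1 was nearer the rest. Scaled by library size and TMM factors, the highest replicate of Neat1 was 3.99 times the lowest, against 1.44 times for Malat1.

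The long Neat1 isoform is known to be needed to build paraspeckles, and the short one is polyadenylated. Neat1-202, of 3004 bases, took 92.3% ± 0.971 of the TPM of Neat1, and the 20771-base Neat1-201 took 2.80% ± 0.248. By expected counts the share of Neat1-201 was 18.4% ± 1.2, since a long transcript gathers more reads per molecule. Neat1-201 alone was at 8.47, 6.01 and 1.86 TPM, so both forms were lowest in replicate 3 and their shares differed little between replicates. The short form lies within the long one, so reads in the shared part were divided between them by the authors' estimate. The libraries were made from polyadenylated RNA, so these shares are of the RNA that was captured. Whether both forms were captured alike was not tested.

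For Malat1 the scale matters more. Malat1-201, of 6983 bases, took 97.3% ± 0.52 of expected counts but 54.7% ± 5.84 of TPM, and the 485-base Malat1-203 took 2.44% ± 0.3 of counts but 42.5% ± 3.94 of TPM. A short transcript of 485 bases has few positions for a fragment of these libraries, so few reads stand for many TPM. That part of the TPM of Malat1 rests on 731, 1504 and 976 counts assigned to Malat1-203.

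**Figure D2:**
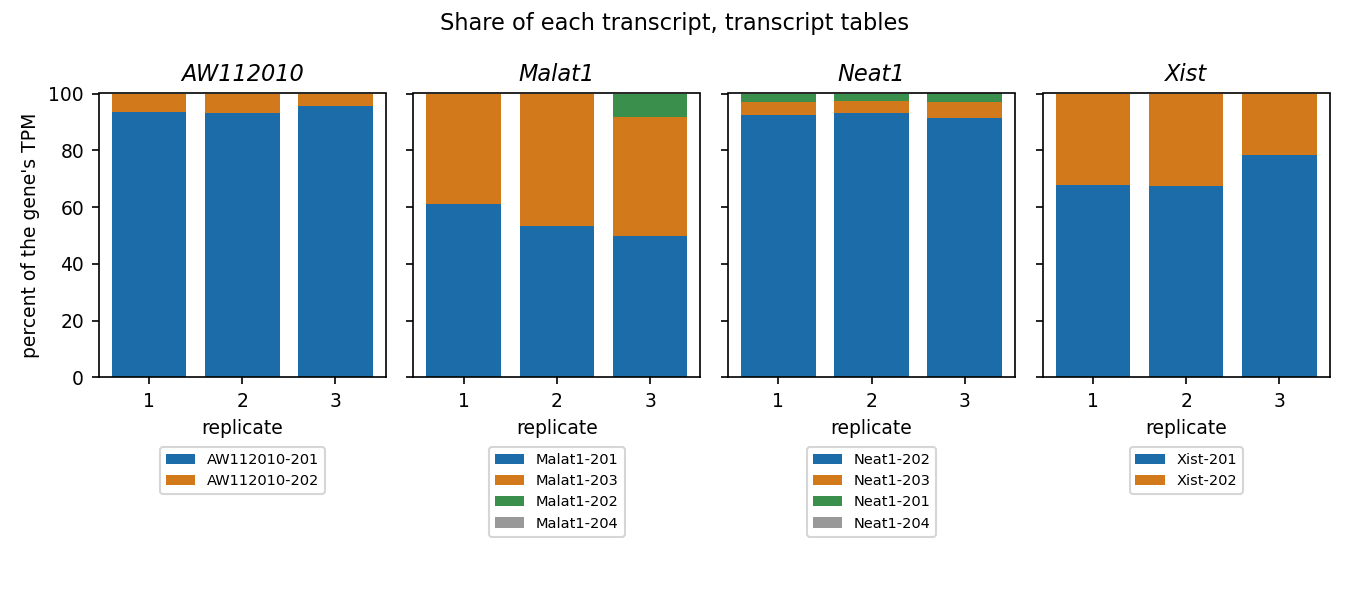
Percent of each gene's TPM in each of its annotated transcripts, in stacked bars for replicates 1, 2 and 3 of AW112010, Malat1, Neat1 and Xist. AW112010 and Neat1 are dominated by a single transcript in all 3 replicates, and Malat1 and Xist are divided between a long and a short transcript, with Malat1-202 at 8.09% in replicate 3 and 0 in the other replicates of Malat1.

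Xist, the RNA that coats and silences an X chromosome in female cells, was at 65.4, 65.6 and 35.9 TPM, a mean of 55.7 ± 17.1 TPM from 12792, 20716 and 13338 counts. Replicate 3 was again the lowest. The Y-linked genes Ddx3y, Eif2s3y, Uty and Kdm5d were at 0 counts in the gene tables of all 3 samples. Xist-201, of 17946 bases, took 98.1% ± 0.55 of counts and 71.3% ± 6.26 of TPM. Tsix, its antisense partner, was listed at 0 in both sets of tables, while 11.5% of the 31-base sequences of Xist lie antisense to it. Jpx, known as an activator of Xist, was just above the floor at 1.62, 1.65 and 1.41 TPM. Ftx, a further gene of that region, missed it with 0.83, 1.03 and 0.67 TPM.

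2900097C17Rik, which the RefSeq table lists as Norad, is an abundant cytoplasmic RNA that binds Pumilio proteins. It was at 81.7, 100.9 and 91.1 TPM, and 44.7% of its 31-base sequences occur in other genes, most of them in Gm7292. 1700020I14Rik, which the RefSeq table lists as Oip5os1 or Cyrano, an RNA known to trigger the decay of miR-7, was at 22.2, 23.1 and 20.2 TPM. Both stayed within a narrow range over the replicates. Lncpint, with 2.59, 1.84 and 0.51 TPM, fell under the floor because of replicate 3.

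On the same strand, 13 members overlap the annotated gene of a microRNA, snoRNA or related RNA, and 9 of these overlap a microRNA gene. Mature microRNAs were not measured here. Their sequences are shown to identify the small RNA that lies within each host. They come from RefSeq on GRCm38.p6, with the seed, bases 2 to 8, in capitals.
miR-155-5p of Mir155hg: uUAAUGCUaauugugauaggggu
miR-142a-3p of Mir142hg: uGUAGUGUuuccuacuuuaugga
miR-142a-5p of Mir142hg: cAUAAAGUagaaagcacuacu
miR-101a-3p of E130102H24Rik: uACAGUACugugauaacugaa
miR-191-5p of 4833445I07Rik: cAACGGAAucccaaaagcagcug
miR-425-5p of 4833445I07Rik: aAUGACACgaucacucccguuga
No seed occurs in more than 1 of them. miR-155-5p lies at chr16:84714143-84714165 and miR-142a-3p at chr11:87756903-87756925, both on the plus strand.

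Mir155hg, the host of miR-155, a microRNA known to rise in activated macrophages, was the highest microRNA host at 99.5, 93.5 and 59.1 TPM from 1592, 2387 and 1523 counts. Its mean was 84.0 ± 21.8 TPM, and replicate 3 was the lowest. Mir142hg, the host of the blood cell microRNA miR-142, was at 3.86, 5.58 and 6.50 TPM from only 3, 6 and 6 counts. Its annotated transcript has 269 bases, near the labelled size range of 250 to 400, and an effective length of 48.8 bases in replicate 1. In the FASTQ-made tables the same gene was at 53.6, 54.1 and 29.2 TPM. E130102H24Rik, the host of miR-101a, was at 11.4, 8.27 and 4.26 TPM. Both Mir155hg and E130102H24Rik were lowest in replicate 3. Gm26532 was at 4.67, 6.10 and 1.88 TPM and also lowest there, but it starts at chr8:84208920-84209609, past the mature miR-24-3p that ends at base 84208896, and so overlaps only the end of the Mir24-2 gene. 4833445I07Rik, which holds the genes of miR-191 and miR-425, stayed between 1.59 and 2.00 TPM. Among the rest, Snhg20 with Mir6516 was at 11.2 ± 2.79 TPM, 2900076A07Rik with Mir1839 at 5.07 ± 1.94 TPM, Gm37233 with Mir5103 at 2.04 ± 0.185 TPM and Snhg10 with Mir3069 at 1.81 ± 0.482 TPM.

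Snhg6, whose intron holds Snord87, was at 55.8, 52.1 and 53.5 TPM, and Snhg12, which holds snoRNAs such as Snora44 and Snord99, was at 21.1, 19.8 and 19.01 TPM. Both stayed within a narrow range over the replicates in TPM. Such hosts are spliced, and their introns release snoRNAs that guide the modification of ribosomal and other RNAs. The remaining hosts of this kind, Epb41l4aos at 9.05 ± 2.53 TPM and A930003A15Rik at 5.61 ± 1.43 TPM, were both highest in replicate 2. Of 29 genes in the host list, 7 were members, 10 were expressed with a mixed biotype and 12 were under the floor. The well-known hosts Gas5 and Snhg1 were expressed, at means of 169.7 and 21.3 TPM, but were left out because not all of their transcripts are lincRNA.

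Outside the lists, Gm36161 ranked 5 with 142, 177 and 160.5 TPM, and 78.2% of its 31-base sequences occur in other genes, led by Gm21188. 1810058I24Rik, which the RefSeq table gives as protein-coding and which is known to encode a mitochondrial micropeptide, was at 57.4, 59.3 and 60.7 TPM. In TPM, its highest replicate was 1.06 times its lowest. 1110002J07Rik was at 81.2, 31.4 and 59.9 TPM, Gm13710 at 21.01, 51.0 and 35.7 TPM, and Gm43351 at 20.0, 19.8 and 35.1 TPM. These 3 differed in which replicate was highest. Rmrp was singled out after its values were seen, since the RNA of the mitochondrial RNA processing enzyme is not polyadenylated in its usual form. The gene of that name annotated as lincRNA was at 6.32, 6.28 and 12.1 TPM from 5.7, 7.9 and 13.2 expected counts. It overlaps a ribozyme gene of the same name, so these few reads were divided between 2 entries.

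Each sample also has a table quantified from FASTQ files, against which the gene tables can be set. The 2 tables come from the same reads and are not replicates. Over the 124 members the Spearman correlation of mean TPM between the tables was 0.817, given as a description across genes that share libraries. The median log2 ratio of FASTQ-table to gene-table TPM (pseudocount 0.1) was 0.03 for the members and -0.22 for all expressed genes, a shift of 0.24 between them. In 18 members the tables were over 2-fold apart. The FASTQ value was higher in 12 (9.68%) and lower in 6 (4.84%), where 0.819% and 2.6% of all 10502 expressed genes were over 2-fold higher and lower. After centring on the median of expressed genes, the count was 20, with 14 higher and 6 lower. The 0.819% and 2.6% were not centred, so they are no background for these centred counts.

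**Figure D3:**
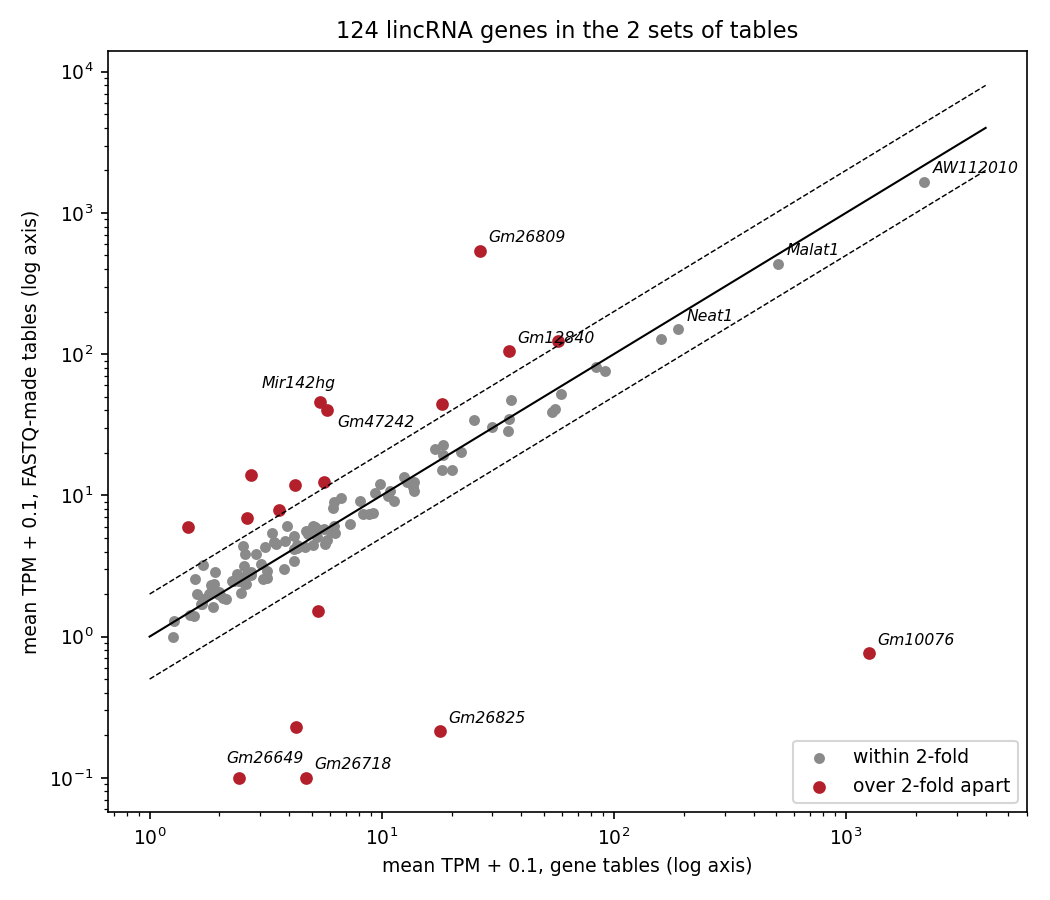
Mean TPM over 3 replicates in the FASTQ-made tables against the gene tables for the 124 lincRNA genes, both plus 0.1 on log axes. The solid line marks equal values and the dashed lines 2-fold; 18 red points lie beyond them, from Gm10076 far below to Gm26809 far above.

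Gm10076 had the largest difference. In the gene tables it ranked second, at 897, 1270.4 and 1613 TPM from 1921.5, 4031 and 4851 counts. In the FASTQ tables it was at 0.385, 1.30 and 0.306 TPM. The gene lies at chr14:105681828-105682211 on the plus strand and has transcripts of 384 and 383 bases. The 383-base Gm10076-202, a single exon that held all of the gene's TPM in the gene tables, aligned without gaps to Rpl41-201, the transcript of a small protein of the large ribosomal subunit, with 381 of 383 bases identical (99.5%). The stretch that matches the coding sequence of Rpl41, 78 bases from start to stop codon, is the same in both genes and lies at chr14:105681869-105681946 in Gm10076.
Gm10076 and Rpl41: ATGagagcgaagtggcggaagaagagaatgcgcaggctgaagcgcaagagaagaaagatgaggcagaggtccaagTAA
Capitals mark the start and stop codons. The 2 differing bases lie after it, shown in capitals within 29 bases of each gene.
Gm10076, first: caagtaagccagccTgtgcacctacgacg
Rpl41, first: caagtaagccagccCgtgcacctacgacg
Gm10076, the other: agtagacctggaacAtcacctcgccgcga
Rpl41, the other: agtagacctggaacGtcacctcgccgcga
Counted from 1 at the 5′ end of the Gm10076 transcript, and with the base of Rpl41 first, these are C126T and G233A. Within the aligned bases, only reads over these places can tell the genes apart. Rpl41 itself was at 1189.8, 1385.8 and 1424.9 TPM in the gene tables and at 975, 1182 and 1428 TPM in the FASTQ tables. Gm10076 thus held 48.6% of the summed TPM of the pair in the gene tables and 0.0556% in the FASTQ tables. The sum was 2594 ± 479 TPM in the gene tables and 1196 ± 227 TPM in the FASTQ tables. The tables therefore differ in the total of the pair as well as in its split, and Rpl41 was not higher on average in the FASTQ tables. How each method counted or divided the shared reads was not tested.

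Next by the ratio of FASTQ-table to gene-table TPM, among members lower in the FASTQ tables, came 4 genes. Gm26825, Gm26718, Gm26649 and Gm26527 are almost wholly antisense to another gene, with 91.4% to 99.4% of their 31-base sequences on its opposite strand. Gm26718, antisense to the mitochondrial phosphatase gene Pgam5, was at 3.48, 4.81 and 5.50 TPM in the gene tables and listed at 0 in all 3 FASTQ tables. Gm26649, antisense to the transcription factor gene Klf7, was at 1.66, 2.41 and 2.90 TPM and also listed at 0. Gm26527, antisense to the lysosomal sulfatase gene Arsb, was at 2.93, 4.60 and 5.01 TPM against 0, 0.384 and 0 TPM. Gm26825, antisense to Gm15459, was at 21.9, 15.2 and 16.02 TPM against 0.217, 0.123 and 0 TPM. In each case the FASTQ tables gave nearly nothing. In the gene and FASTQ tables Pgam5 was at 16.6 ± 1.56 and 16.3 ± 3.89 TPM, Klf7 at 9.91 ± 0.581 and 9.54 ± 2.53 TPM, and Arsb at 7.79 ± 2.12 and 8.18 ± 3.66 TPM. The means of these 3 partners differed by less than their SD between tables, while Gm15459 was at 2.90 ± 0.461 and 1.13 ± 0.288 TPM. Within replicates the 3 did shift, lower in the FASTQ tables in replicate 1 and higher in replicate 3. Klf7, for 1, went from 9.35 to 6.84 TPM in replicate 1 and from 10.5 to 11.9 TPM in replicate 3. Similar means therefore do not show that the partners were unchanged. No source used here says whether counting used strand, so reads of these genes and their partners cannot be told apart in the gene tables.

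Gm26809 differed most in the other direction. It was at 32.9, 17.7 and 28.4 TPM in the gene tables and 460.7, 359.6 and 801 TPM in the FASTQ tables, a 20.5-fold higher mean. It lies at chr6:18844220-18847360, with 44.0% of its 31-base sequences antisense to other genes. Gm12840, which shares 59.8% of its 31-base sequences with the opposite strand of Gm26809, was at 47.0, 28.8 and 29.9 TPM against 124.4, 68.8 and 123.1 TPM. Both were lowest in replicate 2 in both sets of tables. Gm47242 was at 6.03, 6.26 and 4.86 TPM against 31.9, 46.6 and 41.6 TPM and shares no 31-base sequence, like Mir142hg. Of the 47 members that share at least 10% of their 31-base sequences with other genes on either strand, 15 (31.9%) were over 2-fold apart between tables, against 3 (3.9%) of the other 77. Those 3 are Mir142hg, Gm47242 and 1110002J07Rik.

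Had the FASTQ tables set the floor, 203 genes would have been members. Of these, 114 are the same genes, 91.9% of the members by the gene tables and 56.2% of those by the FASTQ tables. Among the 89 found by the FASTQ tables alone, 34 were listed at 0 in all 3 gene tables. Gm29408, singled out after its values were seen, is such a gene, at 437, 175.7 and 385.5 TPM in the FASTQ tables. With the ranking kept to the 124 members, 17 of the 20 highest in the gene tables were also among the 20 highest by FASTQ-table values; genes such as Gm29408 are outside that ranking.

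The label intergenic does not hold for all members. By GENCODE M21, 54 of the 124 overlap another gene, 45 on the opposite strand and 21 on the same strand, and 20 overlap a protein-coding gene. The other 70 overlap none. Where overlapping genes share exons, their reads cannot be told apart without strand, so those levels are uncertain.

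Spread between replicates was described by the SD of log2(TPM + 1). Its median over the members was 0.28, against 0.17 for all expressed genes. Among genes with a mean of at least 10 TPM the medians were 0.34 for 34 members and 0.16 for 6699 genes. Below 10 TPM they were 0.27 for 90 members and 0.19 for 3803 genes. Median levels in these classes were lower for members, at 25.6 against 34.3 TPM and 3.08 against 4.46 TPM. The classes are thus not matched for level or counts, and the part of counting error in the spread was not tested. With 95% Poisson intervals on counts scaled by library size, the highest and lowest replicates did not overlap for 58 of 124 members (46.8%), against 68.1% of all expressed genes. Such intervals narrow with depth, and expressed genes as a whole had the higher median level. In the edgeR quasi-likelihood fit, the dispersion of 46 of the 117 members that passed its count filter (39.3%) lay above the trend for genes of like abundance, against 26.3% of the 12018 genes fitted. With 3 replicates, a gene that follows the trend can also fall above it, so the 39.3% alone does not show that members exceeded the trend. Without replicate 3 the 58 became 32 and the 46 became 27. Without replicate 1 they were 40 and 38, and without replicate 2 they were 44 and 47. These counts were not set beside the same counts over all genes, so they show nothing particular to the members. Replicate 3 was the lowest of the 3 in TPM for 51 members (41.1%), against 33.9% of expressed genes.

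**Figure D4:**
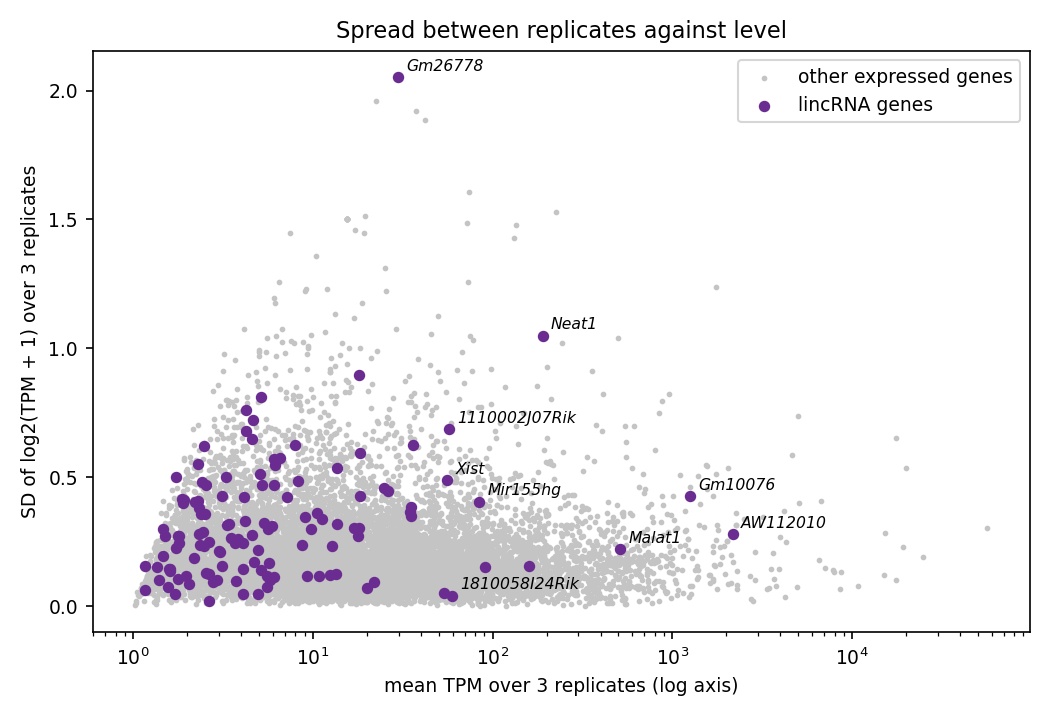
SD over 3 replicates of log2(TPM + 1) against mean TPM on a log axis, with 124 lincRNA genes in purple and all other expressed genes in grey. Gm26778 stands at the top with an SD of 2.05, Neat1 lies at 1.05, and 1810058I24Rik is near the bottom at 0.04.

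Gm26778 varied most. It was at 8.40, 4.16 and 76.4 TPM from 474.6, 379.8 and 7102 expected counts, so that replicate 3 was 18.4 times replicate 2. Without replicate 3 its mean falls from 29.6 to 6.28 TPM. In the FASTQ tables it was at 15.6, 3.617e-05 and 74.98 TPM, with replicate 3 again highest. The gene is antisense to Kctd12 over 99.3% of its 31-base sequences, and Kctd12, a potassium channel tetramerisation domain gene, was at 251, 294 and 277 TPM. The counts of Kctd12 were 23228, 43766 and 42047, highest in replicate 2. Without the strand setting, reads of Gm26778 and Kctd12 cannot be told apart in the gene tables. The part of Kctd12 in the level of Gm26778 was not tested. Neat1 followed, with a quasi-likelihood dispersion of 18.2, against 84.1 for Gm26778. This value measures the variation left around the trend and is not a ratio of the gene's dispersion to it.

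Among the other members with at least 100 counts in each replicate, of which there were 45 in all, Gm17275 had the next largest ratio of highest to lowest TPM, at 5.64, 5.92 and 2.12 TPM. It overlaps the histone gene H3f3a on the opposite strand. Gm42047, 72.3% of whose 31-base sequences occur elsewhere, was at 23.5, 20.7 and 10.4 TPM and was lowest in replicate 3 as well. 1110002J07Rik and Gm13710, given above, complete the 6 with the largest ratios in TPM, and their lowest replicates were 2 and 1. On TMM-scaled CPM the ratio of Gm42047 was 2.08, below that of Gm26917 at 2.09, so the order depends on the scale. At the other end, 1810058I24Rik, Snhg6, Snhg12 and AC158975.2 had the smallest ratios in TPM, with AC158975.2, which shares 90.2% of its 31-base sequences, at 5.16, 5.81 and 5.64 TPM. The counting intervals of the highest and lowest replicates overlapped in each of the 4. On TMM-scaled CPM 1700020I14Rik had a smaller ratio, 1.05, than any of them, and Snhg6 and Snhg12 were at 1.19 and 1.29.

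The floor itself cuts through a dense range of levels. The lowest members by their lowest replicate were 2810414N06Rik at 1.01, 1.05 and 1.45 TPM, 5033430I15Rik at 2.52, 2.05 and 1.02 TPM and Gm26797 at 3.11, 2.71 and 1.03 TPM. Just under it lay Gm38399 at 1.36, 0.99 and 1.31 TPM, Gm49749 at 1.06, 1.88 and 0.99 TPM and Gm11110 at 1.75, 0.98 and 1.83 TPM. The lowest replicates on either side differ from each other by less than the replicates of each gene do. In 8 members a replicate had fewer than 10 counts, and in 79 fewer than 100. In single samples 189, 156 and 147 lincRNA genes were at 1 TPM or more, with the most in the shallowest library, replicate 1.

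Members lay closer to protein-coding genes than other lincRNA genes did, and those neighbours were more often expressed. The median distance to the nearest was 5899 bases, against 45511 for the other 5720 lincRNA genes, and 59 members (47.6%) lay within 5000 bases, against 21.2%. That neighbour had a mean of at least 1 TPM for 101 members (81.5%), against 43.3% of the others, and of at least 100 TPM for 19 (15.3%), against 5.42%. The floor that chose the members and the levels of neighbours come from the same reads. For 20 members the neighbour overlaps, and without the strand setting reads of shared stretches cannot be told apart. The part of such reads in these contrasts was not tested. The highest neighbour was Acod1, the enzyme that makes itaconate in activated macrophages, at 4887, 3519 and 4519 TPM. It lies 22520 bases from Gm34643 on the same strand, which was at 13.7 ± 5.86 TPM. Gm36738 was at 13.6 ± 3.40 TPM beside Rac2, a GTPase gene of the phagocyte oxidase, at 693 ± 84.0 TPM and 1628 bases away. Each lincRNA was far below its neighbour. Leading transcripts of members had a median of 2 exons and 1322 bases, against 3 exons and 950 bases in the other lincRNA genes. Transcripts of a single exon led 21 members (16.9%), against 6.399% of the others.

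**Figure D5:**
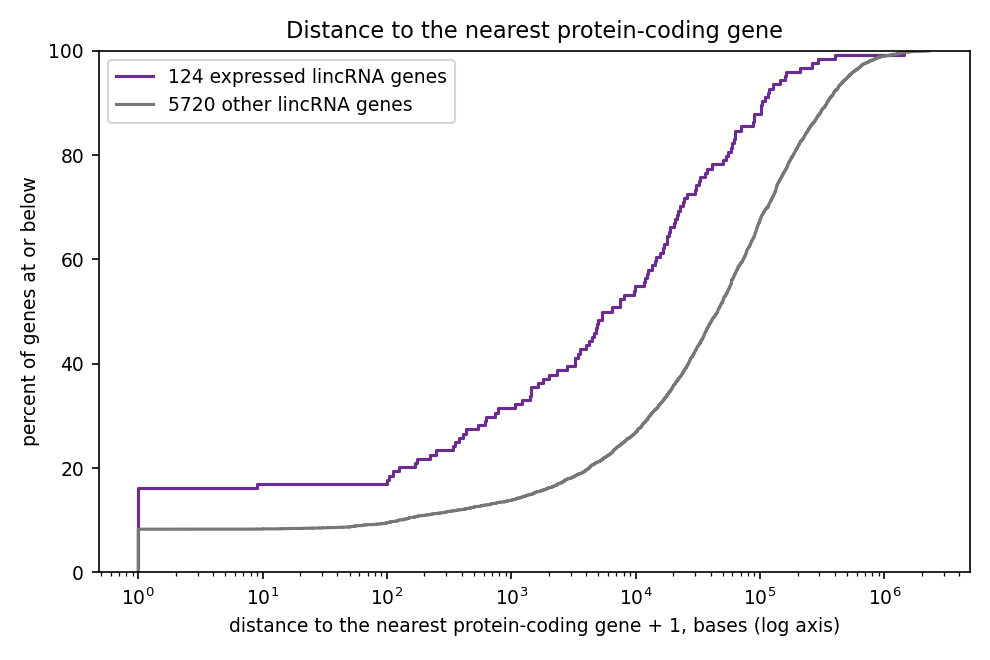
Percent of genes whose nearest protein-coding gene lies at or within a distance, in bases plus 1 on a log axis, for 124 expressed lincRNA genes in purple and 5720 other lincRNA genes in grey. The purple curve lies above the grey at its median of 5899 bases and at 5000 bases, where it stands at 47.6% against 21.2%; the 20 members that overlap a protein-coding gene are at distance 0.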

How the data were processed

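The 3 samples were analysed from the authors' deposited tables, which use mm10 and annotation M21 per the labels. Per the file headers, gene and transcript tables made from a transcriptome alignment hold expected counts and TPM, and the deposited transcript tables also give each transcript's percent of its gene, recomputed here from TPM. Tables made from FASTQ files hold estimated counts and TPM per the file headers. No label or header used here names the programs, their versions or the strand setting.

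Spike-in entries were left out. FASTQ-table TPM was summed per gene. Depth is the total of 23373296 to 37681634 expected counts per sample, and intervals cover counting error only. The members and the gene lists were chosen with earlier results of these data known. Expected counts were rounded for edgeR 4.0.16 in R 4.3.3 (filterByExpr, TMM, intercept only), which gave dispersions and no test between groups, and DESeq2 1.42.0 gave size factors. The dispersion fit and the counting intervals were tested on simulated data. Shared sequence is the percent of 31-base stretches in a gene's GENCODE M21 transcripts that other genes hold too. Members named are the 20 highest by mean TPM, the 6 largest and 4 smallest ratios between replicates among those with 100 counts in each, the 6 largest differences between tables, 3 on either side of the floor, small RNA hosts and members of the lists. Alternatives are another floor, pseudocount, scaling or interval, leaving out a replicate, and leaving out genes with shared or overlapping sequence. Python 3.11.15, pandas 2.3.3, scipy 1.17.1 and matplotlib 3.10.9 were used.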

Additional observations from a re-analysis of the deposited data

How the results depend on the processing

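No paired analysis was possible because the labels give a single group. The number of members was 203 with the FASTQ-made tables, and otherwise 83 to 186 over the other floors, biotype rules and omissions tried. The median of 4.58 TPM was 3.95 TPM without members overlapping another gene, 6.57 TPM with a floor of 2 TPM, 5.03 TPM in the FASTQ tables and 4.04 to 4.81 TPM with a replicate left out. The median spread of 0.28 was 0.34 with a pseudocount of 0.1, 0.20 on TMM-scaled CPM and 0.20 to 0.27 with a replicate left out. The median log2 ratio between tables stayed between -0.06 and 0.15. The 18 members over 2-fold apart became 8 without members sharing 10% of their sequence on the same strand and 7 without those overlapping a gene, and 17 to 18 with a replicate left out. The 58 members with separate intervals became 27 without overlapping members and 32 to 44 with a replicate left out. The 46 above the trended dispersion became 22 and 27 to 47. Fewer members enter those subsets, 94 and 70 of 124. Shares over all genes were not set beside these counts. Centring the tables was added after seeing the data. Of the 20 highest members, 12 moved by more than their SD in the FASTQ tables. Leaving out 1 of 3 replicates cannot move a mean by its SD, so it is no check of these levels. Without replicate 3 the mean of Gm26778 was 6.28 TPM in place of 29.6 TPM. Under 100 counts, as in 79 members, depth limits what the replicates can show.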
